A study of Mus musculus with 18 samples.

Results

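The 205 genes described here were higher in C2C12 cells that overexpress the spliced form of MUNC than in both control cells and cells that overexpress its genomic form, in growth and in differentiation alike. C2C12 is a mouse cell line of muscle precursors, which form multinucleate myotubes once serum is lowered, and MUNC is a long noncoding RNA transcribed near the myogenic regulator Myod1. Membership was set on group means of log2(FPM + 1), where FPM is the deposited read count of a gene scaled for the size of the library. Members were chosen by these measured values, and genes with symbols of some large families were then left out. A member reached 0.5 FPM in at least 3 libraries, and its mean in spliced cells exceeded those of control and of genomic cells by 1 or more in both media, which makes 4 gaps. Of 35275 listed genes, 13869 reached the level of expression and 240 met the 4 gaps. Of these, 7 were left out because genomic cells exceeded control by 1 in both media, 14 because genomic cells fell below control by 1 in both, and 14 because their symbols belong to large families kept apart (among them Bmp4, Igfbp3, Wnt10a and Myh3). The 205 members were 1.48% of the genes tested. All values that compare the spliced line with the other lines within a medium were therefore used to choose the members and are given as a description, with no test.

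The 18 libraries came from 6 groups with 3 biological replicates each, and polyadenylated RNA was sequenced. Control cells carry the label wild type, and the lines labelled MUNC spliced and MUNC genomic, which overexpress those forms, are called spliced and genomic cells from here on. The cells of all groups carry the label C2C12 PAX7 NEG. Each line was sampled in growth medium (GM, 20% fetal bovine serum, near 80% confluence) and after 3 days in differentiation medium with 2% horse serum (DM3). Neither the vector nor the number of clones behind each line is given in the sources used here, so a difference between lines cannot be told apart from a difference between clones. MUNC levels were not analysed here, so the overexpression has no check in these values. Depth was 38416702 to 68788327 reads per library. Against the myoblast label, Myod1, the defining factor of the lineage, had a mean of 0.0285 FPM in control GM and of 0.0993 FPM after differentiation of control cells, while Myf5 had means of 71.8 and 103 FPM there. Myod1 averaged 12.4 FPM in spliced and 3.84 FPM in genomic GM and 28.6 and 18.4 FPM in DM3. It is no member, since its smallest gap, between spliced and genomic DM3, was 0.401. Genomic cells also exceeded control by more than 1 in both media for Myod1, which by itself leaves a gene out. Pax7, the satellite cell factor, averaged at most 0.0727 FPM in any group.

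Differentiating myoblasts leave the cell cycle and switch on a set of genes in order. The myogenic factor Myog comes first, then the contractile apparatus and the machinery that couples excitation to calcium release. Connective tissue cells and myoblasts also secrete an extracellular matrix in which small leucine-rich proteoglycans bind collagen fibrils and growth factors. Both kinds of gene are among the members, beside ligands, receptors, channels, enzymes and transcription regulators.

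Most members were low outside the spliced line, though 50 averaged 5 FPM or more in control GM and 60 in control DM3. The median over members of the mean level was 0.683 FPM in control GM, 0.720 FPM in genomic GM and 7.26 FPM in spliced GM. In DM3 it was 1.29 FPM in control, 1.11 FPM in genomic and 13.1 FPM in spliced cells. Summed over the members, spliced libraries held 8018 to 10968 FPM in GM against at most 2101 FPM in any control or genomic GM library, and 17270 to 19751 FPM in DM3 against at most 4488 FPM. All 3 spliced libraries lay above all 6 libraries of the other lines for 198 members in GM and for 202 in DM3, and for 160 members all 6 spliced libraries lay above all 12 others regardless of medium. These counts follow from the choice of members. Control cells reached 0.5 FPM in 3 libraries for 127 members and genomic cells for 123. No read was found in any of the 3 libraries for 9 members in control GM, 13 in control DM3, 21 in genomic GM and 21 in genomic DM3. In bulk RNA, more cells that express a gene and more of its RNA per cell cannot be told apart.

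**Figure D1:**
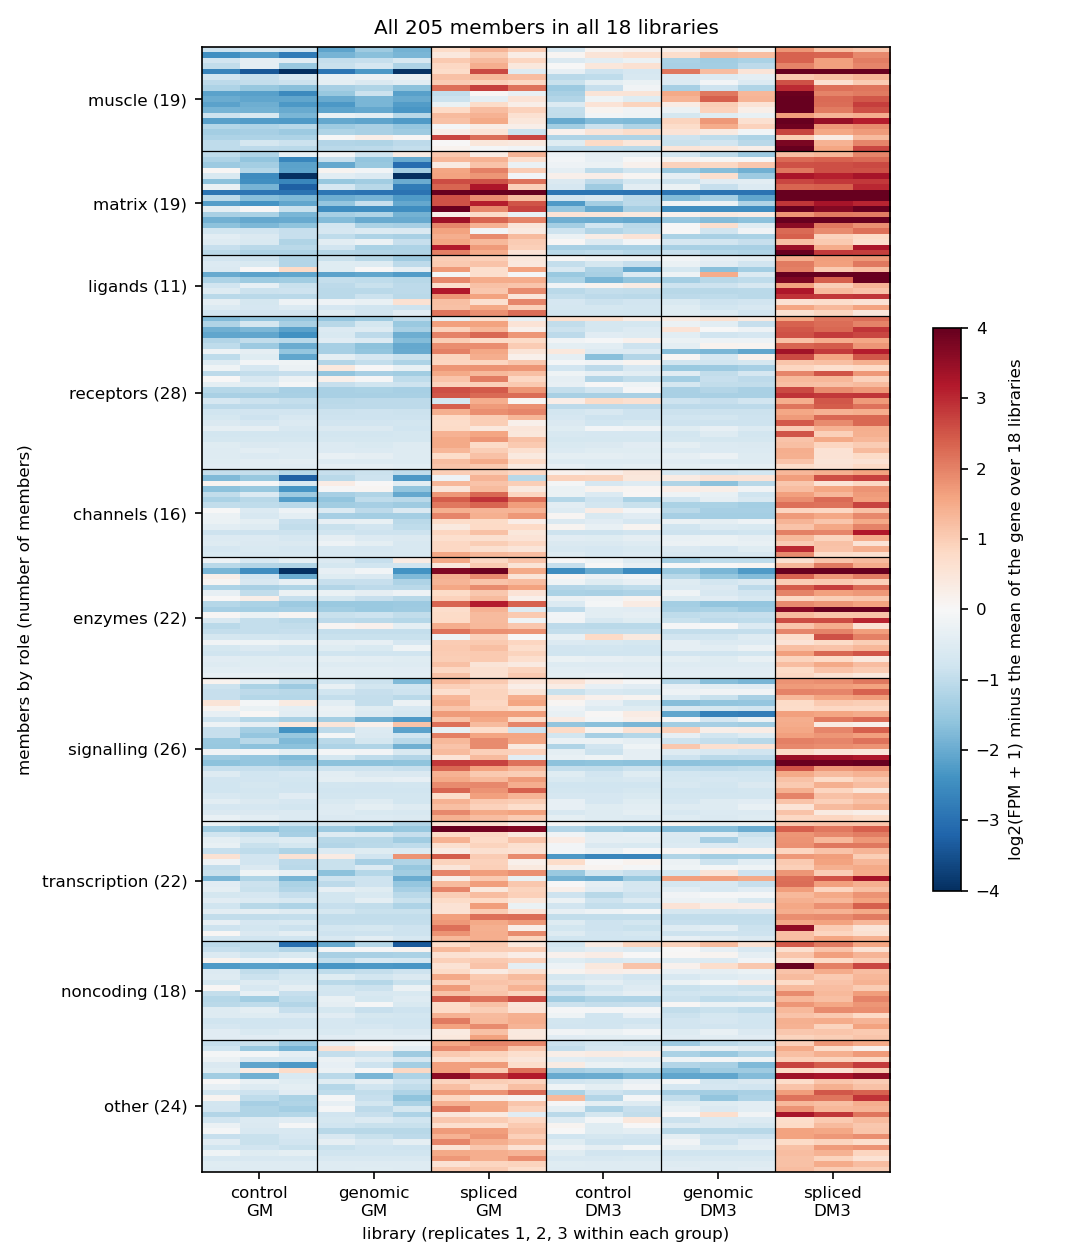
Each row is 1 of the 205 members, sorted by role and then by mean level, and each column is 1 of the 18 libraries. Colour gives log2(FPM + 1) minus the mean of the gene over all libraries, clipped at 4 in either direction. The 6 spliced columns are red for nearly every row, and the first spliced DM3 column is darkest among the 19 muscle genes.

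The line labelled genomic stayed close to control for most members. The median difference between genomic and control cells was -0.01 in GM and -0.03 in DM3 on the log2(FPM + 1) scale. In DM3, 15 members were higher by 1 or more in genomic cells and 17 were lower, and the rule allowed such a gap in 1 medium only. In GM the counts were 6 and 2. Members near 0 FPM in both lines can differ little on this scale. With the rule, this holds the medians near 0, so they are a description. The share of all tested genes with such gaps was not counted. At the edge of the rule stood Klk1b27, Cd302 and Macrod2, whose smallest gaps were 1.003, 1.002 and 1.002, and just outside it Dclk1 and Gm14399, with smallest gaps of 0.999 and 0.997. Macrod2 averaged 1.64 FPM in spliced GM and 0.0674 FPM in control GM, whereas Dclk1 averaged 91.0 and 43.7 FPM, and the 3 members just inside the edge averaged 1.34 to 1.64 FPM in spliced GM.

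Of the 205 members, 187 (91.2%) were protein coding, against 89.6% of the tested genes that the annotation holds. By hand-assigned role, 19 belonged to muscle structure and regulation, 19 to the matrix, 11 were ligands or their antagonists, 28 receptors and adhesion molecules, 16 channels and transporters, 22 enzymes, 26 intracellular signalling or cytoskeletal proteins, 22 transcription regulators, 18 noncoding or pseudogene loci, and 24 had another role or none assigned. From gene lists drawn up for the tissue, the members took 5 of 39 tested contractile genes, 6 of 27 genes of excitation, contraction and the synapse, 10 of 63 noncollagen matrix genes, 4 of 56 developmental transcription factors, 2 of 16 myogenic regulators and 1 of 39 cytokines and receptors. Chromosome 1 held the largest share, 24 of its 837 tested genes (2.87%).

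The members with the largest and the next largest smallest gap, Fndc1 and Prelp, were matrix genes. Fndc1, which encodes a secreted protein with fibronectin type III domains (chromosome 17, 7738569 to 7827302, minus strand, GRCm38), stood at 213, 376 and 180.0 FPM in spliced GM and at 599, 822 and 1025 FPM in spliced DM3. The 12 other libraries held between 0 and 3 reads of it. Prelp (chromosome 1, 133910304 to 133921414, minus strand) encodes a small leucine-rich proteoglycan that anchors basement membranes to connective tissue. It stood at 42.5, 19.7 and 15.4 FPM in spliced GM, at 145, 93.3 and 161 FPM in spliced DM3 and at no more than 0.416 FPM in any other library. Omd, which encodes osteomodulin of the same protein family, stood at 2.17, 1.13 and 0.953 FPM in control GM, 0.759, 0.844 and 0.399 FPM in genomic GM and 38.7, 23.4 and 14.95 FPM in spliced GM. In DM3 the corresponding Omd levels were 2.96, 3.29 and 2.17 FPM, 1.03, 1.63 and 0.605 FPM and 111, 117 and 152 FPM. For these 3 genes the spliced libraries lay far above all others in both media, and within spliced cells every DM3 library lay above every GM library.

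The change between GM and DM3 within a line was not used by the rule and was tested with limma on log2(FPM + 1) over all 13869 genes, with Benjamini-Hochberg adjustment and a call at an adjusted p under 0.05. Over all tested genes 17.2% rose and 18.4% fell in spliced cells, 29.6% and 28.6% in control and 26.3% and 25.1% in genomic cells, and the counts by role below are read beside these shares. Replicates are biological per the labels, and the p-values measure the spread between these samples. In spliced cells Fndc1 rose by 1.71 (SE 0.22, limma adjusted p 3.28e-05), Prelp by 2.41 (SE 0.26, limma adjusted p 7.5e-06) and Omd by 2.35 (SE 0.28, limma adjusted p 1.85e-05). Nid2, a basement membrane nidogen, rose in all 3 lines, by 2.17 (SE 0.34, limma adjusted p 0.0002) in spliced, by 1.57 (SE 0.34, limma adjusted p 0.000934) in control and by 3.14 (SE 0.34, limma adjusted p 3.03e-06) in genomic cells. Srpx2, a secreted sushi-repeat protein, also rose in all 3, from 54.2, 42.9 and 20.4 FPM to 121, 102 and 129 FPM in control cells and from 327, 339.8 and 209 FPM to 632, 676 and 633 FPM in spliced cells. Aspn, encoding asporin, reached 318, 285 and 328 FPM in spliced DM3 from 102, 114 and 30.2 FPM in GM (difference 2.12 (SE 0.90, limma adjusted p 0.077), not called). Replicate 3 of each GM group was the lowest of its group for Aspn. Of the 19 matrix members, 10 rose and 0 fell in spliced cells (all tested genes 17.2% and 18.4%), 8 rose and 1 fell in control, and 6 rose and 2 fell in genomic cells.

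Sulf1 and Sulf2, extracellular enzymes that remove sulphate from heparan sulphate chains, were high in spliced cells in both media. Sulf2 stood at 165, 159.8 and 122 FPM in spliced GM and at 175, 193 and 193 FPM in spliced DM3, against 7.78, 3.95 and 3.47 FPM in control GM and 17.1, 12.2 and 15.3 FPM in control DM3. Its control level rose by 1.44 (SE 0.23, limma adjusted p 5.24e-05), while the change in spliced cells was 0.34 (SE 0.23, limma adjusted p 0.26) and was not called. Ptx3, a secreted pentraxin, stood at 85.4, 20.2 and 35.7 FPM in spliced GM and 106, 69.9 and 141 FPM in DM3, and all 6 genomic libraries held at most 0.0143 FPM. In control cells Ptx3 fell from 3.24, 4.62 and 2.01 FPM to 0.903, 0.395 and 1.22 FPM. Timp3, a tissue inhibitor of metalloproteinases, was already abundant in control cells (82.03, 71.9 and 138 FPM in GM) and stood at 355, 211 and 436 FPM in spliced GM and 388, 424 and 651 FPM in DM3.

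**Figure D2:**
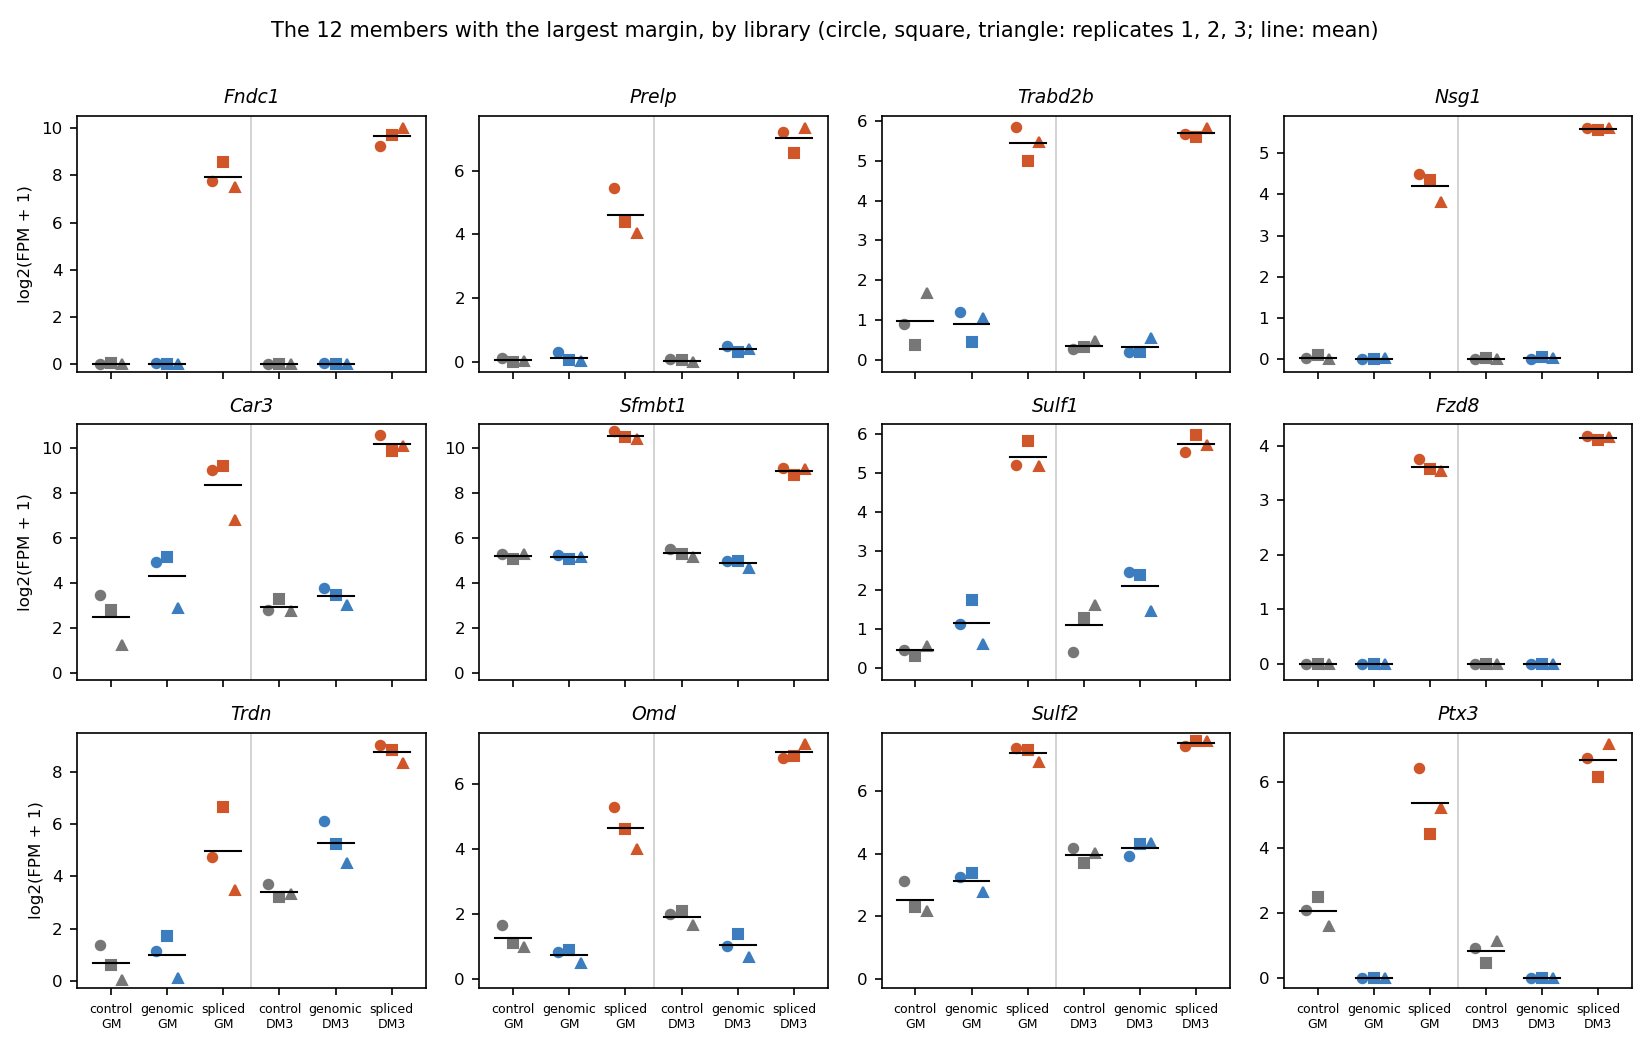
Each panel shows 1 of the 12 members with the largest smallest gap among those averaging 5 FPM or more in spliced cells in both media. The vertical axis is log2(FPM + 1), points are libraries (grey control, blue genomic, orange spliced) and lines are means of 3. In every panel the 3 spliced points of a medium lie above the other 6. Sfmbt1 alone of the 12 was lower in spliced DM3 than in spliced GM beyond the overlap of its libraries.

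The sequences in front of Prelp, Fmod and Myog are shown because these members share 1 stretch of chromosome 1, with less than 500 kb between neighbours. The windows printed are the 250 bases before the RefSeq start on GRCm38.p6, in lower case, with every E-box (CANNTG, the letters bound by basic helix-loop-helix factors such as myogenin) and every MEF2-type element (CTA and TAG around 4 free bases) in capitals, both strands searched. Fndc1 is added as the member with the largest gaps (chr17:7827303-7827552, minus strand), Prelp is at chr1:133921402-133921651 (minus strand), Fmod at chr1:134037004-134037253 (plus strand) and Myog at chr1:134289754-134290003 (plus strand).
Fndc1: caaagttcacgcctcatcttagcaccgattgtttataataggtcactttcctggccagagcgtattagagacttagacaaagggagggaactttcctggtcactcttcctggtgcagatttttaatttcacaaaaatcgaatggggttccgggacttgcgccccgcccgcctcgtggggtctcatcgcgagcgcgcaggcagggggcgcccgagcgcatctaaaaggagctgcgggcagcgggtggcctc
Prelp: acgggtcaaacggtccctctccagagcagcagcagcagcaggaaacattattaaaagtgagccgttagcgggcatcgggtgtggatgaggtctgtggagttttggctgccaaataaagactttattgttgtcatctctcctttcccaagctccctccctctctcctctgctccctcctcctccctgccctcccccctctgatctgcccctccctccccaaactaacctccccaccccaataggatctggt
Fmod: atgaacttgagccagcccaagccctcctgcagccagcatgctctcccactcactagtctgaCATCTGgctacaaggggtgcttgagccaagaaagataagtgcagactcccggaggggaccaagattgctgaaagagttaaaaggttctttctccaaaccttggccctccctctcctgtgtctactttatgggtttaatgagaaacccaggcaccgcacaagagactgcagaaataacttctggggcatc
Myog: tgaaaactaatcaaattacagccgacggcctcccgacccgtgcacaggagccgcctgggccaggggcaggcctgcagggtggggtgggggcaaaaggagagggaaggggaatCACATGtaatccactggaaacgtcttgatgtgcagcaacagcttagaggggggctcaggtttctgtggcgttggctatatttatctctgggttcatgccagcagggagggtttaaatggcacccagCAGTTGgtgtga
The Fndc1 and Prelp windows held 0 E-boxes, the Fmod window 1 and the Myog window 2, and none of the 4 held a MEF2-type element with these letters. The letters fix both ends and leave the middle bases free. Other forms of a MEF2 site were not searched, so a window without a match may still hold one.

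Muscle genes formed a second group. Myog, which encodes myogenin, the factor that commits myoblasts to differentiation (chromosome 1, 134289989 to 134292548, plus strand), stood at 9.72, 12.6 and 5.48 FPM in spliced GM, where control GM held 0.0683, 0.0177 and 0 FPM and genomic GM 0.143, 0.101 and 0 FPM. In DM3 it stood at 226, 52.6 and 40.95 FPM in spliced, 7.89, 14.7 and 6.498 FPM in genomic and 0.192, 0.434 and 0.405 FPM in control cells. The spliced GM and genomic DM3 groups thus overlapped in their Myog levels, and control cells stayed under 0.5 FPM in both media. The rise on differentiation was 3.02 (SE 0.45, limma adjusted p 0.000128) in spliced and 3.23 (SE 0.45, limma adjusted p 2.55e-05) in genomic cells, and the change in control cells was 0.38 (SE 0.45, limma adjusted p 0.491). edgeR's quasi-likelihood test on the recovered reads, whose fold changes do not carry the added 1 FPM, called the control change as well (log2 change 3.49, adjusted p 0.0326).

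Replicate 1 of spliced DM3 was the highest of its group for 17 of the 19 muscle members, and in 10 of them it exceeded both other replicates more than 2-fold. Over all 205 members it was the highest in 84 and exceeded both others more than 2-fold in 22. Without this library Myog rose by 2.27 in spliced cells, Mylpf by 2.62 and Ryr1 by 1.65, and each stayed called. Titin (Ttn), the giant spring protein of the sarcomere, rose by 2.12 (SE 0.48, limma adjusted p 0.00281) over all libraries and by 1.33 without replicate 1, where it was still called.

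Mylpf, the regulatory light chain of fast skeletal myosin, stood at 0.615, 0.496 and 0.507 FPM in control GM, 0.573, 0.793 and 0.588 FPM in genomic GM and 2.52, 3.98 and 8.26 FPM in spliced GM. In DM3 it stood at 1.86, 4.66 and 3.54 FPM, 15.3, 32.2 and 15.4 FPM and 159.8, 30.01 and 35.1 FPM in the same order of lines. In DM3, genomic replicate 2, at 32.2 FPM, overlapped spliced replicate 2, at 30.0 FPM. Tnnt3, fast skeletal troponin T, stood at 17.97, 27.2 and 15.4 FPM in genomic DM3 and 98.4, 24.95 and 27.03 FPM in spliced DM3, where the groups likewise overlapped. Both genes rose in all 3 lines, Mylpf by 3.37, 1.45 and 3.65 and Tnnt3 by 3.08, 2.18 and 3.16 in spliced, control and genomic cells. Actc1, cardiac alpha actin, which embryonic skeletal muscle also uses, stood at 35.7, 5.31 and 12.4 FPM in spliced DM3, 2.04, 1.81 and 1.46 FPM in genomic DM3 and at most 0.0512 FPM in any control library. Reads of Actc1 and its near-identical paralog Acta1 could have been split between the 2 genes, so its level is uncertain. Obsl1, an obscurin-like cytoskeletal linker, was not called between media in any line, at 33.7, 36.4 and 35.02 FPM in spliced GM and 31.6, 34 and 38.4 FPM in DM3.

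**Figure D3:**
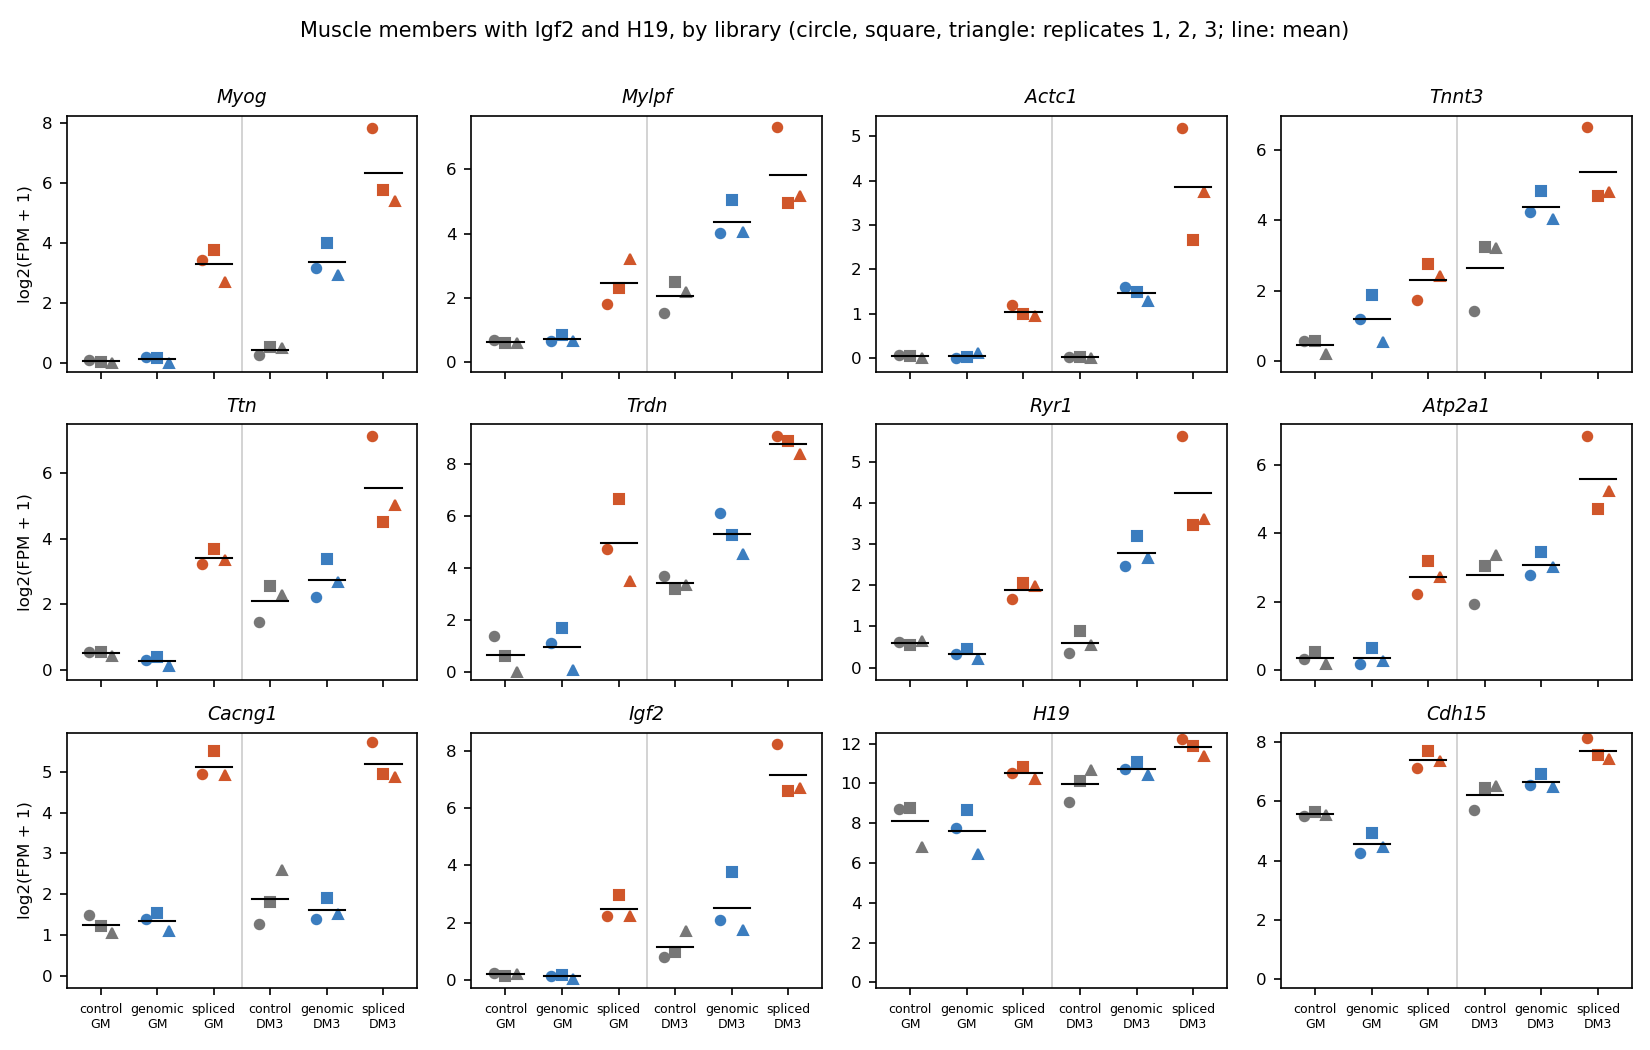
Levels of 10 muscle members, Igf2 and H19 in every library, on a log2(FPM + 1) axis (grey control, blue genomic, orange spliced, circle, square and triangle for replicates 1, 2 and 3, line for the mean of 3). Replicate 1 of spliced DM3 stands above its 2 companions in most panels, and genomic DM3 lies between control and spliced DM3 for Myog and Ryr1.

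Genes of excitation and calcium release behaved in 2 ways. Trdn encodes triadin, which ties calsequestrin to the calcium release channel, and it stood at 11.98, 8.21 and 9.08 FPM in control DM3, 68.95, 37.3 and 22.1 FPM in genomic DM3 and 538, 469 and 333 FPM in spliced DM3. It rose by 3.81 in spliced, 2.74 in control and 4.33 in genomic cells. Atp2a1, the calcium pump of fast muscle, rose in all 3 lines as well, by 2.90, 2.44 and 2.73 in the same order. Ryr1, the calcium release channel itself, rose by 2.35 (SE 0.39, limma adjusted p 0.000301) in spliced and 2.46 (SE 0.39, limma adjusted p 7.92e-05) in genomic cells, whereas control cells held 0.529, 0.4601 and 0.553 FPM in GM and 0.269, 0.848 and 0.4605 FPM in DM3. Cacng1, a subunit of the voltage sensor, was high in spliced cells before differentiation, at 29.7, 44.4 and 29.2 FPM in GM and 51.7, 29.8 and 28.3 FPM in DM3, with no call in any line. Control cells held 1.81, 1.35 and 1.08 FPM of Cacng1 in GM.

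Lrp4, the agrin receptor of the neuromuscular junction, rose in every line but least in spliced cells. Its levels went from 12.8, 15.04 and 9.82 FPM to 77.98, 107 and 120.2 FPM in control cells, from 19.7, 22.8 and 20.2 FPM to 122, 185 and 176 FPM in genomic cells and from 100.1, 149 and 91.9 FPM to 389, 374 and 284 FPM in spliced cells. The change in spliced cells was smaller than in control, with a difference of -1.29 (SE 0.30, limma adjusted p 0.0115), and smaller than in genomic cells, with a difference of -1.24 (SE 0.30, limma adjusted p 0.0155). Cdh15, the myoblast adhesion molecule M-cadherin, stood at 139, 207 and 164 FPM in spliced GM and 277, 189 and 172 FPM in DM3, while genomic cells went from 18.1, 29.3 and 21.2 FPM to 92.7, 119 and 87.7 FPM. Its change differed between the overexpressing lines by -1.78 (SE 0.32, limma adjusted p 0.00223). Vgll2, a muscle cofactor of TEAD factors, ran against the group, since it fell from 14.1, 10.1 and 14.1 FPM in spliced GM to 3.74, 1.93 and 4.61 FPM in DM3 (-1.67 (SE 0.19, limma adjusted p 9.83e-06)). No control library held a Vgll2 read. Of the 19 muscle members 13 rose and 1 fell in spliced cells (all tested genes 17.2% and 18.4%), 10 rose and 0 fell in control (29.6% and 28.6%), and 11 rose and 2 fell in genomic cells (26.3% and 25.1%).

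The windows before the sarcomeric genes show where the letters of the myogenic factors occur. CAGCTG, an E-box form that MyoD and myogenin favour, was present in 4 of the 12 windows of muscle members (33.3%; Tmem182, Obsl1, Atp2a1 and Mylpf), in 15.6% of the 186 windows of all members and in 13% of the 32851 windows in the RefSeq table. Any E-box was present in 62.9% of member windows and 66.2% of all windows, and the MEF2-type element in 3.23% and 3.20%, so over the whole set these letters were about as frequent as elsewhere. Of the other letters searched on both strands, CAGGTG (another E-box form) was in 25 of 186 member windows and 17.2% of all windows. CATTCC (TEAD) was also in 25 member windows and in 12.6% of all windows. TGANTCA (AP-1) was in 4.84% of member windows and 6.75% of all windows, and TATAAA in 10.8% and 12.4%. CC and GG around a fixed number of free bases were in 76.3% of member windows and 67.1% of all windows. With any base allowed between CC and GG, these letters are looser than a CArG box, whose own share was not counted. Windows were found for 148 of the 205 members, and some members have several. Obsl1 (chr1:75506453-75506702, minus strand) and Ttn (chr2:76982548-76982797, minus strand) were the muscle members with the letters searched as a MEF2-type element. Any middle base was allowed there, so these letters can differ from a MEF2 site. Mylpf (chr7:127211358-127211607, plus strand) is shown for its CAGCTG. The Mylpf window lies inside the longer gene span of the GENCODE annotation.
Mylpf: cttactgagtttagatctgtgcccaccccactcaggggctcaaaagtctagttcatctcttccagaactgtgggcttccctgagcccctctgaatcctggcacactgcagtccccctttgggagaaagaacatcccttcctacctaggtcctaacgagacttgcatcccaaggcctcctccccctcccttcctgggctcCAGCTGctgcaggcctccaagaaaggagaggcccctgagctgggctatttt
Obsl1: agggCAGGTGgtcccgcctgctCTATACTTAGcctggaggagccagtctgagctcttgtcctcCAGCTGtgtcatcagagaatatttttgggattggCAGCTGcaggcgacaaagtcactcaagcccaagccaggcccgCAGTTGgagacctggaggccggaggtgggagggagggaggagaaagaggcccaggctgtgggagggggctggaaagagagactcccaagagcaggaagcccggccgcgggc
Ttn: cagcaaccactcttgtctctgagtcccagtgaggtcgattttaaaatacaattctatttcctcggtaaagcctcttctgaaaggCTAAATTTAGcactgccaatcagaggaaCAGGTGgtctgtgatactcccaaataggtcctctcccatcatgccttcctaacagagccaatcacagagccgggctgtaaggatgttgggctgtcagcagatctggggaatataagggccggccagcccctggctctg
The Obsl1 window held 4 E-boxes, of which 2 read CAGCTG, the Mylpf window 1 and the Ttn window 1. A match is a stretch of letters and says nothing of binding.

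Among ligands, Igf2, the insulin-like growth factor that myoblasts secrete as they differentiate, had the largest change with medium among members in spliced cells. It stood at 3.63, 6.71 and 3.64 FPM in spliced GM and 299, 95.2 and 104 FPM in spliced DM3, at 0.7297, 0.967 and 2.28 FPM in control DM3 and at 3.21, 12.5 and 2.34 FPM in genomic DM3. The rise in spliced cells was 4.72 (SE 0.46, limma adjusted p 2.04e-06), and every DM3 library lay above every GM library. Replicate 1 was the highest of the DM3 libraries, and without it the rise was 4.19. Fst, the secreted antagonist of activin and myostatin, stood at 18.8, 3.54 and 6.96 FPM in spliced GM and 19.2, 4.15 and 3.74 FPM in DM3, against at most 0.512 FPM in any other library. Tgfb2, a transforming growth factor, stood at 60.8, 64.7 and 38.7 FPM in spliced GM and rose to 126, 92.9 and 127 FPM in DM3, while control cells held 14.4, 17.6 and 14.8 FPM in DM3. Rspo3, which strengthens Wnt signals, rose from 6.26, 5.48 and 2.002 FPM to 14.9, 14.2 and 14.4 FPM in spliced cells and reached at most 0.186 FPM elsewhere. Fgl2, a fibrinogen-like secreted protein, fell in spliced cells from 6.61, 5.11 and 7.03 FPM to 1.67, 2.14 and 1.36 FPM (-1.41 (SE 0.13, limma adjusted p 1.05e-06)), and control cells held no read of it.

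The receptors covered several families of ligand. Fzd8, a Frizzled receptor for Wnt proteins, had no read in any of the 12 control and genomic libraries and stood at 12.6, 10.9 and 10.6 FPM in spliced GM and 17.2, 16.4 and 16.9 FPM in spliced DM3. Against a floor of 3 reads per library this was at least 227-fold higher than control in GM. Lpar3, a receptor for lysophosphatidic acid, likewise had no read outside the spliced line and stood at 9.79, 5.68 and 6.31 FPM there in GM. Lpar4, of the same ligand, was expressed in control cells too (9.01, 8.07 and 2.98 FPM in GM) and rose in spliced cells from 46.1, 33.1 and 15.5 FPM to 118, 79.2 and 101 FPM. Lifr, the receptor for leukemia inhibitory factor, rose in all 3 lines and was the single member from the list of cytokines and their receptors. Its levels were 9.65, 10.4 and 7.99 FPM in control GM and 74.9, 100.3 and 44.98 FPM in spliced GM, and they reached 20.9, 23.3 and 26.2 FPM and 222, 194 and 286 FPM in DM3. Ghr, the growth hormone receptor, went from 22.4, 25.6 and 25.6 FPM to 128, 125 and 97.9 FPM in control and from 63.8, 122 and 63.7 FPM to 239, 350.2 and 379.6 FPM in spliced cells. Of the 28 receptors and adhesion molecules, 11 rose and 2 fell in spliced cells (all tested genes 17.2% and 18.4%), 8 rose and 1 fell in control, and 6 rose and 2 fell in genomic cells.

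Among channels and transporters, Slc40a1, the iron exporter ferroportin, changed most in control cells. It went from 13.03, 15.5 and 3.903 FPM to 88.6, 87.97 and 63.8 FPM in control and from 40.3, 120.2 and 20.9 FPM to 149, 285 and 318 FPM in spliced cells, and it was called higher in all 3 lines. Gabrb2, a subunit of the GABA-A receptor, stood at 9.69, 17.6 and 8.96 FPM in spliced GM and 16.95, 21.8 and 25.5 FPM in DM3, but genomic GM libraries reached 7.02 FPM and genomic DM3 libraries 8.23 FPM.

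Of the enzymes, Car3, a carbonic anhydrase of muscle and fat, stood at 9.901, 5.93 and 1.35 FPM in control GM, 29.8, 34.7 and 6.32 FPM in genomic GM and 509, 590.1 and 111 FPM in spliced GM. Replicate 3 was the lowest in each of the 3 GM groups. In spliced DM3 it stood at 1519.5, 926 and 1064 FPM and rose by 1.82 (SE 0.65, limma adjusted p 0.0375). Dio2, the deiodinase that activates thyroid hormone, went from 3.71, 6.62 and 1.01 FPM to 34.6, 64.5 and 63.1 FPM in spliced cells (3.67 (SE 0.34, limma adjusted p 1.31e-06)), while control DM3 reached 0.403, 1.16 and 1.11 FPM and genomic DM3 0.158, 0.196 and 0.0585 FPM. Fmo1, a flavin-containing monooxygenase, moved the other way, from 13.9, 25.4 and 14.5 FPM in spliced GM to 10.02, 9.17 and 8.19 FPM in DM3, as it rose in control cells from 0.376, 0.248 and 0.108 FPM to 1.04, 1.87 and 2.74 FPM. The gap between spliced and control cells for Fmo1 was therefore wider in GM than in DM3.

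Transcription regulators were led by Sfmbt1, which encodes a protein with malignant brain tumour repeats linked to Polycomb repression. It was expressed in every library, at 38.3, 32.6 and 38.2 FPM in control GM and 36.98, 32.8 and 34.9 FPM in genomic GM, and stood at 1719, 1453 and 1332 FPM in spliced GM. In DM3 its levels were 44.6, 38.1 and 35.3 FPM, 30.3, 30.8 and 24.9 FPM and 545, 444 and 539 FPM in control, genomic and spliced cells. It fell in the spliced line (-1.56 (SE 0.12, limma adjusted p 3.09e-07)) and was not called in the other 2. Id2, an inhibitor of basic helix-loop-helix factors, fell in control cells from 16.8, 5.82 and 16.2 FPM to 1.36, 0.888 and 0.866 FPM (-2.66 (SE 0.50, limma adjusted p 0.000303)). In spliced cells it stood at 61.5, 22.2 and 41.6 FPM in GM and 37.6, 35.7 and 22.1 FPM in DM3, with overlapping groups. Prrx1, a homeobox factor of limb mesenchyme, rose from 176, 181 and 137 FPM to 351, 390.1 and 426 FPM in spliced cells (1.24 (SE 0.16, limma adjusted p 4.68e-05)) and from 58.03, 55.1 and 39.5 FPM to 92.04, 77.9 and 80.1 FPM in control cells. Klf4 stood at 174, 114 and 145 FPM in spliced GM against 50, 42.3 and 45.2 FPM in control GM, and was not called between media in any line. Lhx2 and Sox8 completed the members from the list of developmental factors. Lhx2 had no read in genomic cells and went from 5.12, 3.87 and 5.57 FPM to 3.11, 2.196 and 1.74 FPM in spliced cells, a fall that edgeR and DESeq2 did not call.

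Signalling genes held members with opposite changes. Nsg1, an endosomal protein of neurons, rose in spliced cells from 21.5, 19.3 and 13.1 FPM to 47.9, 46.3 and 48.3 FPM and reached at most 0.0708 FPM elsewhere. Insc, an adaptor of cell polarity, rose from 3.91, 7.09 and 1.51 FPM to 36.2, 33.6 and 31.2 FPM, with 1.75, 1.99 and 1.66 FPM in control DM3 and 0.8904, 0.618 and 0.624 FPM in genomic DM3. Tiam1, an activator of the GTPase Rac, fell from 7.799, 5.02 and 8.13 FPM to 3.63, 2.18 and 1.37 FPM (-1.26 (SE 0.18, limma adjusted p 0.000105)). Lfng, the enzyme that modifies Notch receptors, fell in all 3 lines, from 45.98, 23.6 and 38.1 FPM to 27.1, 11.8 and 10.6 FPM in spliced cells and from 7.89, 6.92 and 12.6 FPM to 2.4, 2.17 and 1.88 FPM in control cells. Pde4b, which degrades cyclic AMP, was at 41.2, 40.6 and 40.6 FPM in spliced GM and 39.8, 38.4 and 35.3 FPM in DM3, and it fell in genomic cells from 9.63, 7.95 and 6.97 FPM to 2.12, 1.02 and 0.937 FPM. Of these 26 members, 7 rose and 6 fell in spliced cells, 7 rose and 2 fell in control, and 4 rose and 4 fell in genomic cells, where 17.2% and 18.4%, 29.6% and 28.6%, and 26.3% and 25.1% of all tested genes did.

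Noncoding members included H19, the imprinted RNA beside Igf2. Its levels were 426, 440.3 and 109 FPM in control GM, 218, 398 and 85.4 FPM in genomic GM and 1478, 1816 and 1182 FPM in spliced GM. In DM3 they were 527, 1124 and 1657 FPM, 1680.3, 2152 and 1356 FPM and 4892, 3745 and 2640.2 FPM, and the rise was called in control and genomic cells but not in spliced cells (1.31). The entry with the symbol mmu-mir-133b is annotated as a long noncoding RNA locus on chromosome 1 (20669882 to 20684298, plus strand), and its reads are not those of the mature microRNA. It stood at 6.66, 10.3 and 2.92 FPM in spliced GM and 101, 19.8 and 32.3 FPM in DM3, against 3.48, 5.98 and 10.5 FPM in control DM3, and rose in all 3 lines.

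Several members were neighbours. In 14 pairs (27 members) no other tested gene lay between the 2, and 25 pairs (46 members) lay within 500 kb. Ecm2, Aspn and Omd, all genes of leucine-rich matrix proteins, follow each other on chromosome 13 with gaps of 11.7 and 14.9 kb. Ogn, the next gene of that family, missed the rule with a smallest gap of 0.712. Tnnt3, H19 and Igf2 lie on chromosome 7 with gaps of 59.5 and 72.6 kb, and Car3 and Car2 on chromosome 3 are 13.8 kb apart. Lfng and Ttyh3 on chromosome 5 are 5.0 kb apart. Prelp and Fmod are 115.8 kb apart and Fmod and Myog 241.7 kb. Between the latter lie Btg2 and Mybph, whose smallest gaps were -1.34 and 0.605. Tnmd, a membrane protein typical of tendon cells, and Srpx2 are 42.8 kb apart on chromosome X around Tspan6, whose smallest gap was 0.781. Levels within such a cluster were not alike. Fmod had no read in control and genomic DM3, where Myog was at 7.89, 14.7 and 6.498 FPM in genomic cells. Gm20655 and Txlnb overlap, as do Amigo2 and Pced1b, and reads without stated strand could be shared between the 2 genes of each pair. How often neighbours fall together among other genes was not tested.

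**Figure D4:**
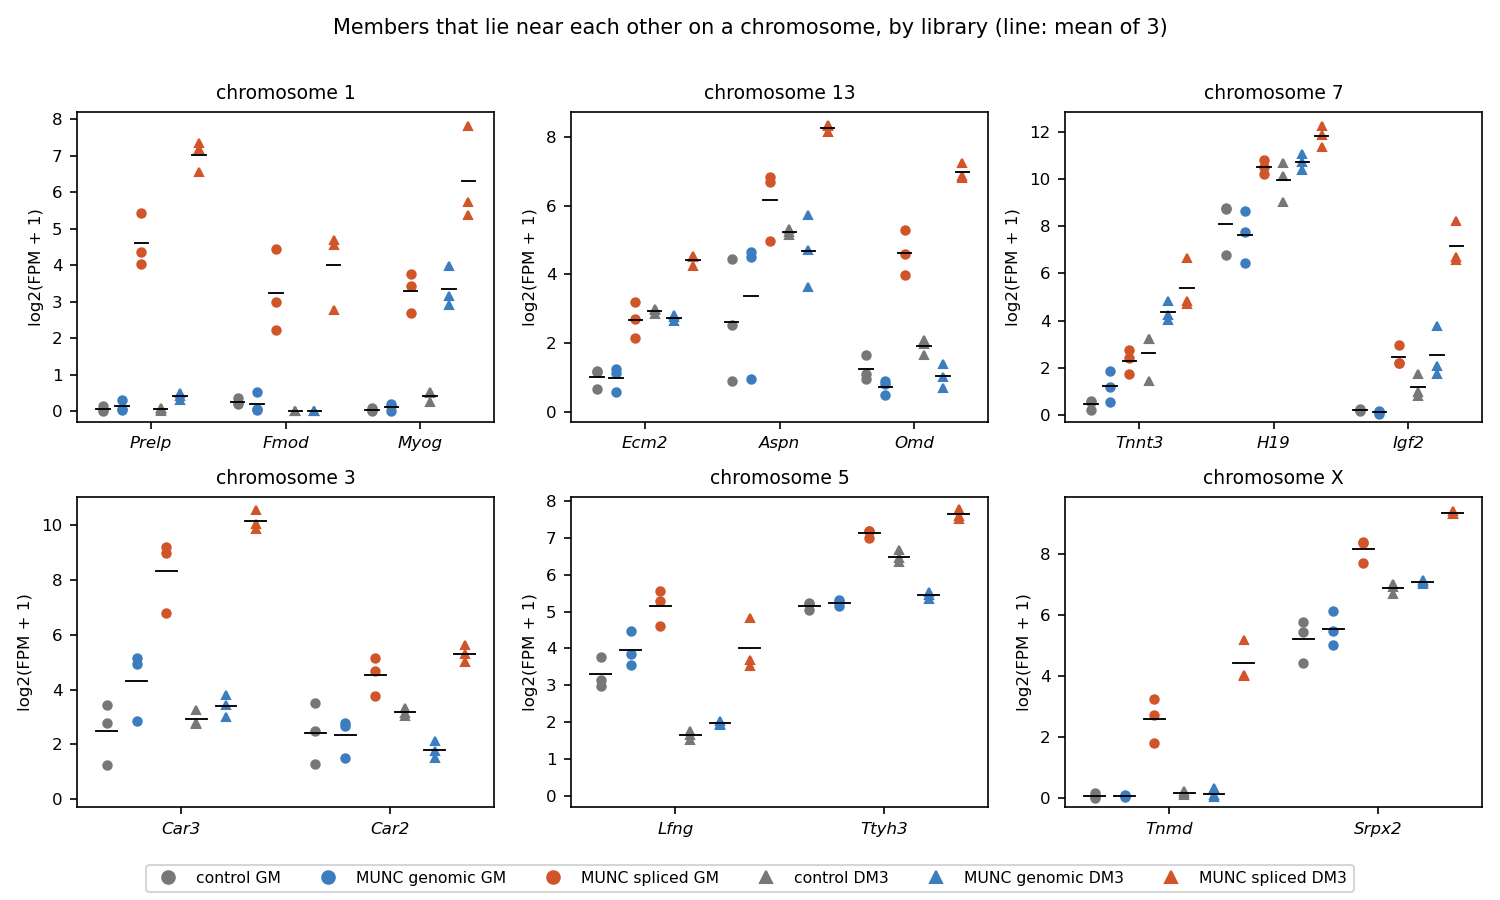
Levels of members that lie near each other on 6 chromosomes, on a log2(FPM + 1) axis. Circles are GM and triangles DM3 libraries (grey control, blue genomic, orange spliced), and lines are means of 3. Spliced points are the highest of their medium for every gene but Tnnt3, whose groups overlap in both media, while the other lines range from no reads (Fmod in DM3) to 2152 FPM (H19 in DM3).

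On differentiation, members rose more often than they fell in the spliced line. There 85 of 205 members rose (41.5%) and 17 fell (8.29%), where 17.2% of all tested genes rose, 18.4% fell and 35.6% were called in either direction. The median change was 0.41 for members and -0.01 for all tested genes. In control cells 58 members rose (28.3%) and 11 fell (5.37%), against 29.6% and 28.6% of all tested genes (58.2% in either direction), with medians of 0.15 and 0.02. In genomic cells 50 rose (24.4%) and 17 fell (8.29%), against 26.3% and 25.1% (51.4% in either direction), with medians of 0.07 and 0.02. The 78 members that did not reach 0.5 FPM in 3 control libraries could hardly be called in control cells, so the choice of members bears on these shares, and the contrast between lines is a description. Without a test, the DM3 libraries stood above the GM libraries with no overlap for 89 members in spliced cells (background 21.3%), 76 in control (31.9%) and 63 in genomic cells (32.5%). They stood below with no overlap for 19, 14 and 24 members in the same order (backgrounds 23.3%, 30.5% and 30.3%). Members rose in all 3 lines in 25 cases and fell in all 3 in 2, and 62 were called in none. The same joint counts were not made over all tested genes, so these have no background.

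Of the 127 members at 0.5 FPM or more in 3 control libraries, 56 rose in control and 60 in spliced cells. Of the other 78 members 25 rose in spliced cells. Over all tested genes 29.6% rose in control and 17.2% in spliced cells. The shares among all genes at that level in control were not counted. On log2(FPM + 1) a gene that stays under 1 FPM in both media cannot change by 1. edgeR on the recovered reads called 70 members higher in spliced cells (34.1%, background 16.8%) and also 70 higher in control cells (34.1%, background 27.7%), and 54 in genomic cells (26.3%, background 25.2%).

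Whether the change on differentiation differed between lines was tested as an interaction. For members near 0 in the other line, the interaction on log2(FPM + 1) is close to the change in spliced cells alone, so the counts are given as a description of the members. Against control, the change was higher in spliced cells for 32 members (15.6%) and lower for 14 (6.83%), where 7.43% and 6.94% of all tested genes were called (14.4% in either direction). Against genomic cells it was higher for 34 (16.6%) and lower for 13 (6.34%), where 5.36% and 5.17% were called (10.5% in either direction). Both comparisons share the spliced libraries, and 22 members were higher in both and 6 lower in both. No such joint count was made over all tested genes. These shares depended on the scale. edgeR called 11 members higher and 11 lower against control (5.37% each, backgrounds 7.51% and 4.58%) and 14 higher and 7 lower against genomic cells (6.83% and 3.41%, backgrounds 4.17% and 2.97%). DESeq2 called 16 higher against control (7.8%, background 9.35%), so with both count tools the share of members higher against control was below that of all tested genes. Against genomic cells DESeq2 called 27 higher and 12 lower (13.2% and 5.85%, backgrounds 6.63% and 5.72%), so there the share of members called higher stayed above the background. The median interaction against control was 0.10 with limma and -0.02 with edgeR.

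**Figure D5:**
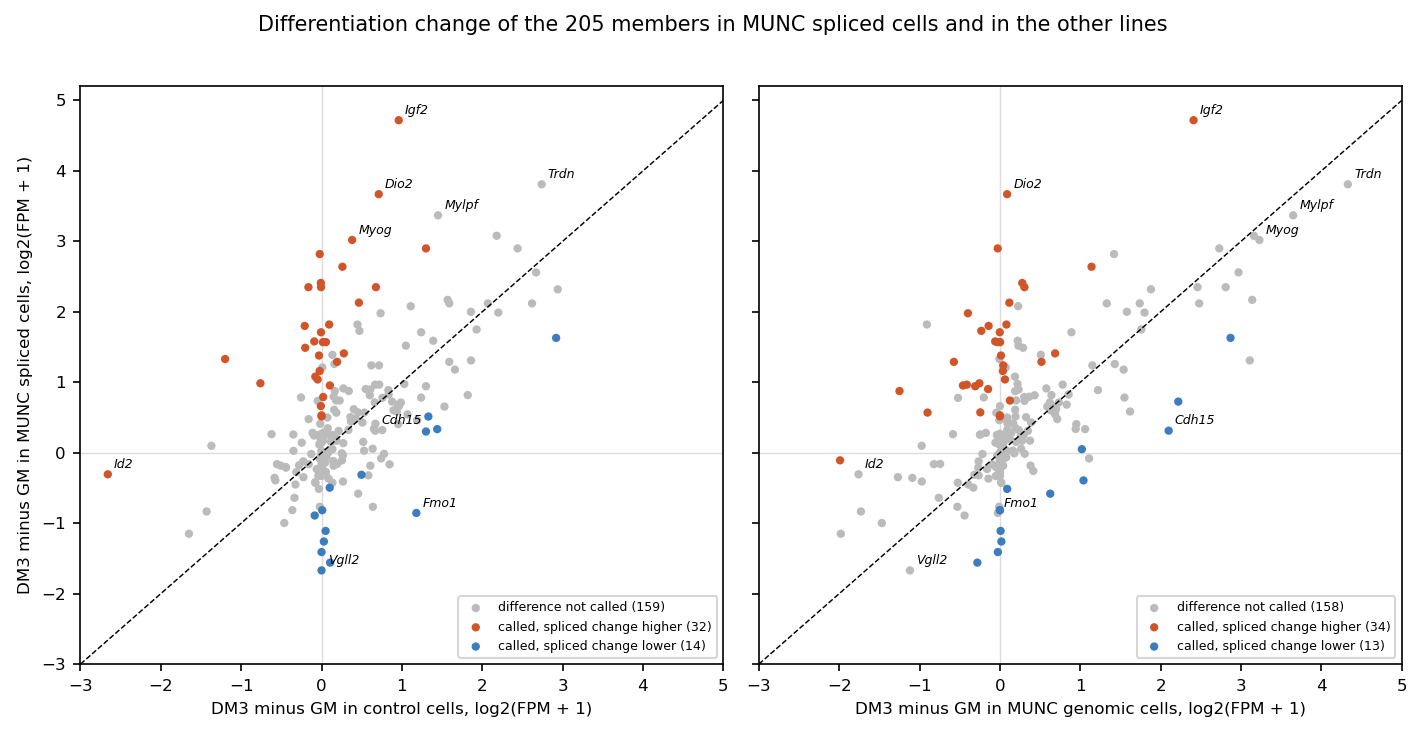
Each point is 1 of the 205 members, with its DM3 minus GM change in spliced cells on the vertical axis and that in control (left) or genomic cells (right) on the horizontal axis, all on log2(FPM + 1). Colour marks the tested interaction (32 higher and 14 lower against control, 34 and 13 against genomic), and the dashed line marks equal change. The axes share the spliced values, and many points lie in a column near 0 where the gene was barely read outside the spliced line.

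Single genes differed in how they stood up to the scale. Dio2, Igf2 and Actc1 had the highest interactions against control, at 2.96 (SE 0.48, limma adjusted p 0.00136), 3.76 (SE 0.64, limma adjusted p 0.00204) and 2.84 (SE 0.54, limma adjusted p 0.00369). With edgeR they were 1.18, 2.07 and 5.11 (adjusted p 0.4, 0.247 and 0.0913), so none of the 3 was called. Myog went from 2.64 (SE 0.64, limma adjusted p 0.0135) with limma to 0.05 with edgeR (adjusted p 0.993). Ryr1 held on both scales, with 2.35 (SE 0.55, limma adjusted p 0.0117) and an edgeR value of 3.11 (adjusted p 0.0198). Sfmbt1 and Fmo1 were lower against control on both scales, at -1.66 (SE 0.18, limma adjusted p 6.98e-05) and -2.03 (SE 0.30, limma adjusted p 0.00076) with limma and at -1.61 and -3.87 with edgeR (adjusted p 0.00033 and 0.00215). Insc was higher against genomic cells on both, at 2.93 (SE 0.39, limma adjusted p 0.000177) and 3.16 with edgeR (adjusted p 0.016).

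The pathways around the members moved as follows in spliced cells on differentiation. Beside the counts stand the shares of all tested genes, of which 17.2% rose and 18.4% fell in spliced cells. These shares were 29.6% and 28.6% in control and 26.3% and 25.1% in genomic cells. Of 39 tested contractile genes 27 rose and 2 fell, with 4 of the 5 members among those that rose, and the list's median change was 1.49 against -0.01 over all tested genes. In control cells 14 rose and 5 fell, and in genomic cells 23 rose and 3 fell. Gaps between lines in DM3 are given as a description, since the rule set them for the 5 members. Their share over all tested genes was not counted. In DM3, 22 of the 39 were higher by 1 or more in spliced cells than in control and 1 was lower, and 18 were higher and 5 lower than in genomic cells. The summed level of the 57 listed genes did not follow this order, since it came to 2799 to 4959 FPM in spliced DM3, 3182 to 3577 FPM in control DM3 and 5109 to 6435 FPM in genomic DM3. Of 27 tested genes of excitation, contraction and the synapse 20 rose and 0 fell in spliced cells, 17 rose and 1 fell in control, and 16 rose and 1 fell in genomic cells. Of 63 tested noncollagen matrix genes 26 rose and 9 fell in spliced cells, 26 and 10 in control, and 23 and 13 in genomic cells. Of 56 developmental transcription factors 14 rose and 12 fell in spliced cells, 14 and 11 in control, and 10 and 22 in genomic cells.

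Markers of other cell types were read beside the matrix members. Summed over 11 fibroblast markers (among them Dcn, Lum, Pdgfra and the fibrillar collagens), spliced GM libraries held 13252 to 22468 FPM, control GM 7064 to 11379 FPM and genomic GM 7006 to 16174 FPM. In DM3 the sums were 19946 to 21087 FPM in spliced, 10650 to 12120 FPM in control and 13691 to 15491 FPM in genomic cells. Thy1 had no read in spliced libraries, and none in control GM or genomic DM3 either. None of the 9 tested fibroblast markers was a member, and 1 of the 9 was higher by 1 or more in spliced cells than in control in each medium. In DM3, 1 was also lower by 1 or more than in control. Against genomic cells, 3 were higher and 0 lower in GM, and 3 were higher and 3 lower in DM3. How many of all tested genes had gaps of this size was not counted. The 8 adipocyte markers summed to 20.3 to 26.4 FPM in spliced GM and 22.3 to 23 FPM in spliced DM3. They summed to at most 11.5 FPM in any control or genomic library. Lep and Cidec had no read in spliced cells, in control cells or in genomic DM3. The 7 osteoblast markers summed to 77.4 to 101 FPM in spliced DM3, 254 to 354 FPM in control DM3 and 58.6 to 66.4 FPM in genomic DM3. The 7 chondrocyte markers summed to 42.5 to 46.7 FPM, 65.9 to 84.1 FPM and 76.4 to 122 FPM in the same order. Sums of smooth muscle, neural, endothelial and macrophage markers are not reported here. The 8 myoblast markers summed to 669 to 917 FPM in spliced GM, 370 to 545 FPM in control GM and 585 to 999 FPM in genomic GM. In DM3 they summed to 905 to 1497 FPM in spliced, 794 to 1174 FPM in control and 1849 to 1955 FPM in genomic cells. The part of such cells in the matrix and muscle members was not tested.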

How the data were processed

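RNA-seq libraries of 18 cultures, 3 per group, were read from 1 table. The authors deposited FPM, a signal scaled by library, made with STAR, HTSeq and DESeq2 on mm10, per the submitters' processing notes, and tables of log2 fold changes (also deposited by the authors), used here only for gene symbols. Values in FPM came out as whole reads in 100% of cases (within 0.05). A label calls them FPKM. No versions are given in the sources used here.

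Genes at 0.5 FPM or more in 3 libraries were tested on log2(FPM + 1) with limma 3.58.1 in R 4.3.3, 1 fit over 6 groups (12 residual degrees of freedom), Benjamini-Hochberg adjustment, 5 comparisons. The fit was tested on simulated data. edgeR 4.0.16 and DESeq2 1.42.0 on the recovered reads were alternatives. Coordinates are GENCODE M21 (GRCm38). Promoter windows are RefSeq.

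The members and gene lists were chosen with earlier results of these data known, and roles were assigned by hand after membership was known. Genes named in the text are the 12 largest smallest gaps at 5 FPM or more, the largest called changes per line and the list members. Fst, Tgfb2, Rspo3, Lpar3, Lpar4, Ghr, Gabrb2, Fmod, Tnmd, Myod1, Myf5, Pax7, H19, mmu-mir-133b and the gene pairs were chosen after their values were seen. The source label of some samples disagrees with their titles, and groups follow the titles. Some genes are not reported here.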

Additional observations from a re-analysis of the deposited data

Results flagged for a closer look

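The change on differentiation differed between lines in the tested interaction for the members with the largest values in either direction. Against control, spliced cells had a lower change for Fmo1 (-2.03), Vgll2 (-1.67) and Sfmbt1 (-1.66) and a higher change for Igf2 (3.76), Dio2 (2.96), Actc1 (2.84) and Myog (2.64), each called by limma. Fmo1 and Sfmbt1 were called by edgeR and DESeq2 as well, Actc1 by DESeq2 only, and Vgll2, Igf2, Dio2 and Myog by neither. Against genomic cells, spliced cells had a lower change for Cdh15 (-1.78), Coro2b (-1.50) and Sox8 (-1.43) and a higher change for Dio2 (3.58), Insc (2.93) and Ranbp3l (2.38). Of these, Cdh15, Coro2b, Sox8 and Insc were called by edgeR and DESeq2 as well, Dio2 by DESeq2 only and Ranbp3l by neither.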

How the results depend on the processing

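The number of members went from 205 to 354 with a pseudocount of 0.1 (180 shared) and to 55 with a gap of 2, and was 193 to 221 when 1 library was left out. In each count that follows, the share of all tested genes called under the same alternative stands in parentheses. Members that fell in spliced cells (17) numbered 11 with a pseudocount of 0.1 (18.2%), 26 with quantile normalization (20.1%), 9 with edgeR (16.7%), 11 with DESeq2 (17.6%) and 11 in a fit restricted to the groups under comparison (11.1%). In control cells (11) they numbered 20 with quantile normalization (29.4%), where 49 rose (28.7%), 18 with edgeR (30.2%) and 17 with DESeq2 (28.8%). In genomic cells (17) they numbered 10 with no filter (14.1%) and 26 with DESeq2 (25.7%). Interactions against control that were higher (32) numbered 19 with a pseudocount of 0.1 (6.65%), 11 with edgeR (7.51%) and 16 with DESeq2 (9.35%). The members' own shares were 9.27%, 5.37% and 7.8%, so the excess over all tested genes was lost with both count tools. Against genomic cells, 34 higher became 18 with a pseudocount of 0.1 (4.67%) and 14 with edgeR (4.17%), and 13 lower became 8 (4.3%) and 7 (2.97%). DESeq2 gave 27 higher (6.63%) and 12 lower (5.72%) there. The Myog interaction against control was -0.071 with DESeq2. The cause was not tested.

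Leaving out 1 library gave 7 to 14 members lower in control cells (7 without control GM replicate 3 or control DM3 replicate 2), 10 to 17 lower in genomic cells (10 without genomic DM3 replicate 3), and interactions against genomic cells of 21 to 34 higher (21 without genomic GM replicate 1 or genomic DM3 replicate 3) and 8 to 15 lower (8 without genomic GM replicate 1 or 3, or spliced DM3 replicate 3). In the fits named, calls over all 13869 tested genes dropped as well. Those lower in control cells went from 3967 to 3588 and 3506, and those lower in genomic cells from 3484 to 3024. Interactions against genomic cells went from 743 higher to 495 and 485, and from 717 lower to 458, 477 and 639. Id2 in genomic cells was -1.09 without genomic GM replicate 3, and Sox8 0.61 without genomic DM3 replicate 2. The Myog interaction against genomic cells ranged from -0.96 to 0.26. Of 87 tested values of named genes, 56 kept their direction and side of the threshold in every alternative tried.

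The labels do not say that a replicate number marks a shared culture or day. Deviations from group means correlated with a median r of 0.291 between libraries of the same number and -0.124 between others, 36 of 45 same-number pairs were over 0.1, and 17 of 18 libraries correlated best with their own number, a hint of pairing from the data. Deviations within a group cancel out, so the r between other libraries is tied to the same-number r and adds no separate evidence. The lowest same-number r was -0.057, and the block was kept as an alternative. With the replicate number as a block, 96 members rose and 23 fell in spliced cells (all tested genes 23% and 24.7%), 66 and 13 in control (33.4% and 31.9%) and 55 and 24 in genomic cells (30.7% and 29.5%). Interactions were 41 higher and 21 lower against control (2006 and 1862 of 13869 tested genes) and 43 and 17 against genomic cells (9.53% and 10.1%). The block raised the calls over all genes as well. Genes under about 1 FPM in both media limit these tests.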
